A study of Mus musculus with 30 samples.

Results

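The 83 genes described here are nuclear genes of the mitochondrial respiratory chain, of complexes I, III and IV and of ATP synthase, followed across macrophages of Ticam2-/- (KO) and WT mice. A gene was a member when it was protein-coding, its symbol began with Nduf, Uqcr or Atp5 or with Cox and a number of 4 to 8, and its counts summed over all 30 libraries to at least 300. No response to a treatment or genotype entered that rule, although earlier results of these data were known when it was chosen. Of 32361 gene IDs in the table, 88 protein-coding genes had such a symbol and 83 passed the total. The 5 below it were Cox6a2 with 294 counts, Cox6b2 with 263, Cox4i2 with 28, Cox8b with 11 and Ndufa4l2 with 8, while the members nearest above it were Atp5s with 514, Cox7a1 with 1496 and Ndufaf7 with 1502. Complex I contributed 7 core subunits, 29 accessory subunits and 8 assembly factors, complex III 8 genes, complex IV 13 and ATP synthase 18.

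The inner membrane of the mitochondrion carries this chain. Complexes I, III and IV pass electrons from NADH to oxygen and pump protons as they do so, and ATP synthase uses the resulting gradient to make ATP. Each of these complexes joins subunits made from nuclear genes to a few made from the mitochondrial genome, and dedicated assembly factors build complex I in steps without staying in it. Macrophages exposed to bacterial products are known to turn towards glycolysis and to lower their oxidative phosphorylation.

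The macrophages were grown from bone marrow for 6 days in medium conditioned by L929 cells, a source of M-CSF, after lysis of red cells. Ticam2-/- macrophages lack TRAM, a membrane-bound adaptor through which Toll-like receptor 4 reaches TRIF and the induction of type I interferon. They received LPS at 10 ng/mL, which Toll-like receptor 4 senses, or LTA at 100 ng/mL, a ligand attributed chiefly to Toll-like receptor 2, for 2 h or 6 h, or were left untreated. WT macrophages, from mice given as C57BL/6J, were treated in the same 5 ways. Each of the 10 groups held 3 libraries, each from the cells of 1 animal, and 3 animals per genotype supplied all conditions. The sources used here do not give the animals' age and sex, how the allele was made or whether controls were littermates.

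The targeted gene came first as a check of the labels. Ticam2 had 1 to 26 counts in the 15 KO libraries and 15 to 259.5 in the 15 WT libraries, and within every condition each KO library lay below each WT library. Depth differed between 2 sets of libraries, with 1334784 to 2658329 counts in each of the 12 treated for 2 h and 10641070 to 13521660 in each of the other 18. All 8 macrophage markers examined were present in both sets, at a sum of 27100 to 34050 CPM (counts scaled to a common library total) in the 2 h libraries and 14160 to 29650 in the others. The sum of 6 erythroid markers was 0 to 0.831 CPM in the 2 h libraries, 4 of them at 0, against 5598 to 7732 in the others, and that of 5 fibroblast markers was 57.0 to 122.9 against 3.01 to 5.97. The fibroblast excess lay in the collagen genes Col1a1, Col1a2 and Col3a1. Dcn, at most 0.89 CPM in any library, was at 0 in most 2 h libraries, and Pdgfra reached at most 0.749 CPM. Of 4 liver markers, Alb had 38.3 to 82.3 CPM in the 2 h libraries and 0 in the others. Ttr had 0 CPM in the 2 h libraries and 19.7 to 28.6 in the others. Apoa1 reached at most 3.35 CPM in any library, and Trf overlapped between the sets. The sum of the lymphocyte markers was at most 0.456 CPM for T and NK cells and 0.809 CPM for B cells in any library. No untreated library belongs to the 2 h set, so a difference between 2 h and untreated cells cannot be told apart from one between these sets.

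The promoters of 68 members were matched by gene ID or symbol to RefSeq windows of 250 bases before to 50 bases after the annotated start (GRCm38.p6). The motifs of 3 factors known to act on respiratory genes were searched on both strands. GCGCATGC, bound by NRF1, occurred in 11 of the 68 members (16.2%) and in 3.05% of the 27025 genes with a window. CCGGAAG, of the ETS factor GABPA, occurred in 16 members (23.5%) and in 9.93% of the genes. AAGATGGCG, of YY1, occurred in 8 members (11.8%) and in 1.64% of the genes. CCGGAAG ends in the letters with which AAGATGGCG begins, so that 1 run can hold both. At least 1 of the 3 was found in 29 members and none in 39, which says only that these letters are not in those windows. The genes with a window were not limited to those expressed in these cells, as the members are. Shares over expressed genes alone were not computed, so the higher shares of the members may not be particular to them.

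The windows of 4 members with large differences below are shown 5′ to 3′ with the motif letters in capitals, a pair whose level relative to other genes rose in WT cells at 6 h and a pair whose level fell. Ndufs4 (chr13:114388045-114388344, minus strand) holds 1 YY1 motif near its start, Uqcrc1 (chr9:108936398-108936697, plus strand) holds a palindromic run of the NRF1 motif, Ndufaf4 (chr4:24897833-24898132, plus strand) holds such a run and a further NRF1 motif, and Ndufaf7 (chr17:78936885-78937184, plus strand) holds none of the 3.
Ndufs4: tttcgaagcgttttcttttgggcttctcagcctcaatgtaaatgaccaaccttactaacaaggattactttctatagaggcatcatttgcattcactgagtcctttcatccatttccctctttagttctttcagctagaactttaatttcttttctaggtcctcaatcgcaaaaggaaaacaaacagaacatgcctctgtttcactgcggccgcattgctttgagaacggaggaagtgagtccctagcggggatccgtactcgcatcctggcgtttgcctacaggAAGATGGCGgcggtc
Uqcrc1: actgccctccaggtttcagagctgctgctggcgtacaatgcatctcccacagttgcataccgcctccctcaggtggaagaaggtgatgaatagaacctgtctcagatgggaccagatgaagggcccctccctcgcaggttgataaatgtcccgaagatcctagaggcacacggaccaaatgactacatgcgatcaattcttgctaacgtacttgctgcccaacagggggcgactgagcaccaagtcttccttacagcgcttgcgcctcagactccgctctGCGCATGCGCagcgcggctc
Ndufaf4: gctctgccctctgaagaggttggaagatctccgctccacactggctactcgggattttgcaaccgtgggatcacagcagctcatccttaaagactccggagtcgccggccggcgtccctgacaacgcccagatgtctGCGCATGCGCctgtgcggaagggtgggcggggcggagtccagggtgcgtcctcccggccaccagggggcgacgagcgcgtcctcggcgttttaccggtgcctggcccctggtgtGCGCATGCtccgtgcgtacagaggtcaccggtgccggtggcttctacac
Ndufaf7: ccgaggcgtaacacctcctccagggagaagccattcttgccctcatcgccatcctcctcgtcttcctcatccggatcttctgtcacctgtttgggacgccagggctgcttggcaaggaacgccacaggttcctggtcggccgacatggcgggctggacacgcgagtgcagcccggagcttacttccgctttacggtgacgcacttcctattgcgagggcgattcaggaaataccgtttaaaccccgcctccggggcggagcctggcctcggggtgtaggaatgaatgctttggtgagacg
A window with the NRF1 motif thus stood before a gene that rose relative to other genes and before one that fell. The windows of Uqcrfs1 and Atp5b are not printed and held none of the motifs searched. Both genes rose more than Uqcrc1 relative to other genes in WT cells after LPS. Against all RNA counted, Uqcrc1 was lower in those cells, as given below. A match is a description of letters, not of a bound site.

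The respiratory chain genes took a smaller share of all counts after 6 h of either ligand than without treatment in both genotypes, and at 6 h their share was larger in KO than in WT macrophages. With LPS for 6 h they took 1.24, 1.30 and 1.30% of the counts in KO cells and 0.897, 0.908 and 0.961% in WT cells. With LTA for 6 h they took 1.26, 1.25 and 1.27% in KO cells and 0.995, 0.965 and 0.978% in WT cells. Untreated KO cells gave 1.46, 1.46 and 1.44% and untreated WT cells 1.43, 1.39 and 1.40%. No KO library overlapped the WT libraries in these 3 conditions, and no treated library of 6 h overlapped the untreated ones of its genotype. The mean share in KO cells was 1.39 times that in WT cells with LPS, 1.29 times with LTA and 1.03 times without treatment. Against untreated cells, the share after 6 h of LPS was 0.881 times as large in KO and 0.656 times in WT, and after LTA 0.868 and 0.697 times. Each of these differences had an exact two-sided permutation p of 0.1, the smallest that 3 against 3 libraries allow. At 2 h the KO and WT shares overlapped, with 1.58, 1.45 and 1.53% in KO against 1.61, 1.57 and 1.56% in WT cells with LPS (p = 0.3 by the exact permutation test). In bulk RNA, fewer cells of a type and less RNA per cell cannot be told apart.

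**Figure D1:**
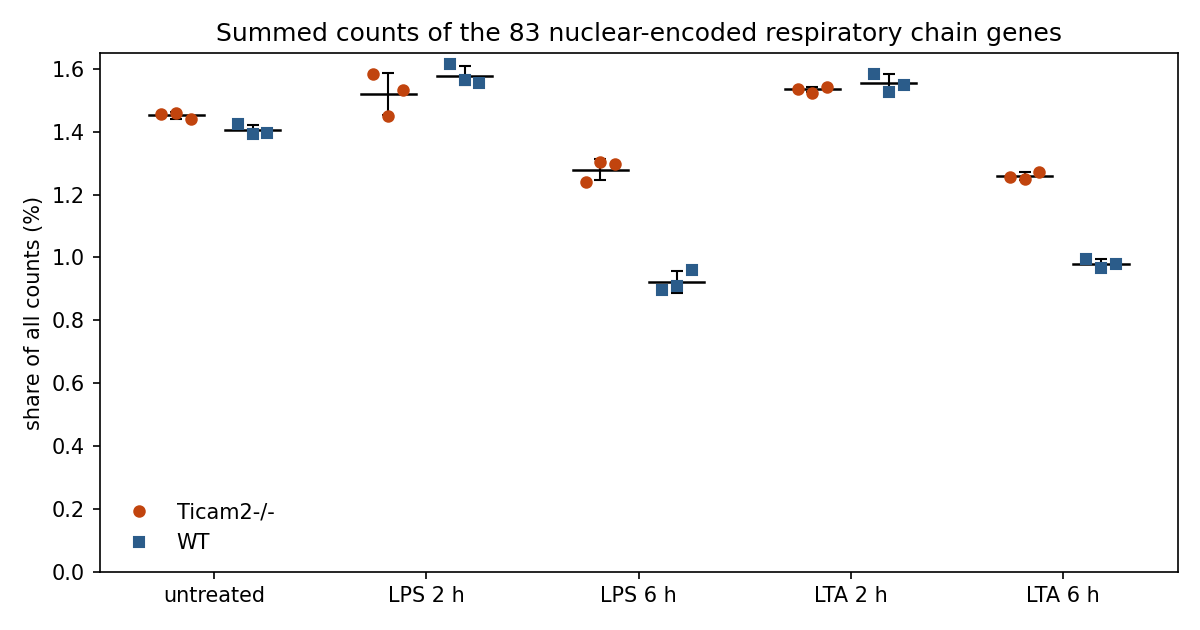
Share of all counts, in percent, taken by the 83 respiratory chain genes in each of the 30 libraries (points), with the mean (line) and SD (bar, n = 3) of each group, by condition and genotype. At 6 h the KO libraries lie between 1.24 and 1.30% and the WT libraries between 0.897 and 0.995%.

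A share of counts depends on what else the cells transcribe, so every comparison is given on 2 scales. Scaling by the trimmed mean of M values (TMM) sets a gene against the bulk of other genes, and scaling by total counts sets it against all RNA counted. TMM factors averaged 1.00 and 0.699 in KO and WT cells after 6 h of LPS, 1.01 and 0.748 after LTA and 1.15 and 1.13 without treatment. Between the scales, the median of all 15131 genes tested therefore moved by about the same step as the members. For KO against WT with LPS at 6 h it was 0.014 by TMM and 0.54 by total counts on the log2 scale, and the members' median was -0.0044 and 0.52. Levels below are TMM-scaled CPM unless total counts are named, and differences are log2 fold changes ± SE from the quasi-likelihood test of edgeR. Adjusted p-values follow Benjamini and Hochberg over all genes tested, and a gene is called below 0.05.

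In untreated cells, few respiratory chain genes differed between KO and WT. Of the 83 members, 5 were higher and 1 lower in KO by TMM, against 5.96% of all genes called higher and 7.5% called lower, and 9 were higher and 1 lower by total counts (all genes 6.91% and 6.29%). Cox7a2l, which encodes a factor that links complexes III and IV in supercomplexes, had 142, 143 and 142 CPM in KO cells and 121, 119.9 and 124 in WT cells. That difference of 0.23 ± 0.045 left no overlap between the genotypes (adjusted p = 0.000117). Ndufs8, an iron-sulfur core subunit of complex I, was 0.19 ± 0.054 higher (adjusted p = 0.00968) and the accessory subunit gene Ndufv3 0.16 ± 0.045 higher. Cox4i1, the largest nuclear-encoded subunit of complex IV, had 488, 505 and 502 CPM in KO and 455, 457 and 449 CPM in WT cells (0.14 ± 0.044, adjusted p = 0.0271). Its call was lost in 5 of the 6 fits that left out 1 library of these groups (0.13 to 0.15). Atp5a1, the alpha subunit of ATP synthase, was 0.13 ± 0.038 higher. Leaving out WT library 2 ended the calls of Ndufv3 (0.15) and Atp5a1 (0.12), and leaving out KO library 2 those of Ndufs8 (0.18) and Atp5a1 (0.11). Ndufaf4, a complex I assembly factor, was the only member called lower, at 17.0, 20.2 and 20.2 CPM in KO against 24.6, 23.8 and 20.9 CPM in WT cells (-0.27 ± 0.077, adjusted p = 0.0105). Leaving out KO library 1 or WT library 1 or 2 ended that call (-0.19 to -0.25), and without WT library 2 the count of called members was 2 in place of 6.

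After 6 h of LPS, the complexes responded in different directions relative to other genes, and by smaller steps in KO than in WT cells. By TMM, 14 members rose and 19 fell in KO cells, where 25.8% of all genes rose and 26.6% fell, and 28 rose and 29 fell in WT cells, where 36.6% rose and 36% fell. By total counts, 2 rose and 65 fell in KO (all genes 15.6% and 41.9%), and 0 rose and 81 fell in WT (all genes 16.2% and 63.7%). Scaling by relative log expression (RLE) factors gave 14 rising and 19 falling in KO and 35 rising and 21 falling in WT, and scaling by the members' own summed counts gave 12 and 22 in KO and 20 and 45 in WT. Single libraries shifted these splits by TMM. In KO it was 12 rising and 11 falling without untreated library 2, 7 and 16 without untreated library 3, 21 and 8 without LPS library 1 and 6 and 21 without LPS library 2, and in WT 30 and 19 without LPS library 2. With all libraries no share by TMM was above that of all genes, whereas by total counts nearly every member was lower in WT. The median of the absolute log2 change was 0.10 in KO and 0.20 in WT by TMM, and 0.22 and 0.73 by total counts. For 70 of the 83 members by TMM and 81 by total counts it was the smaller one in KO. All genes were also called less often in KO than in WT on both scales, at the shares given above. The size of the steps was not computed for all genes, so whether smaller steps set the members apart was not tested.

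**Figure D2:**
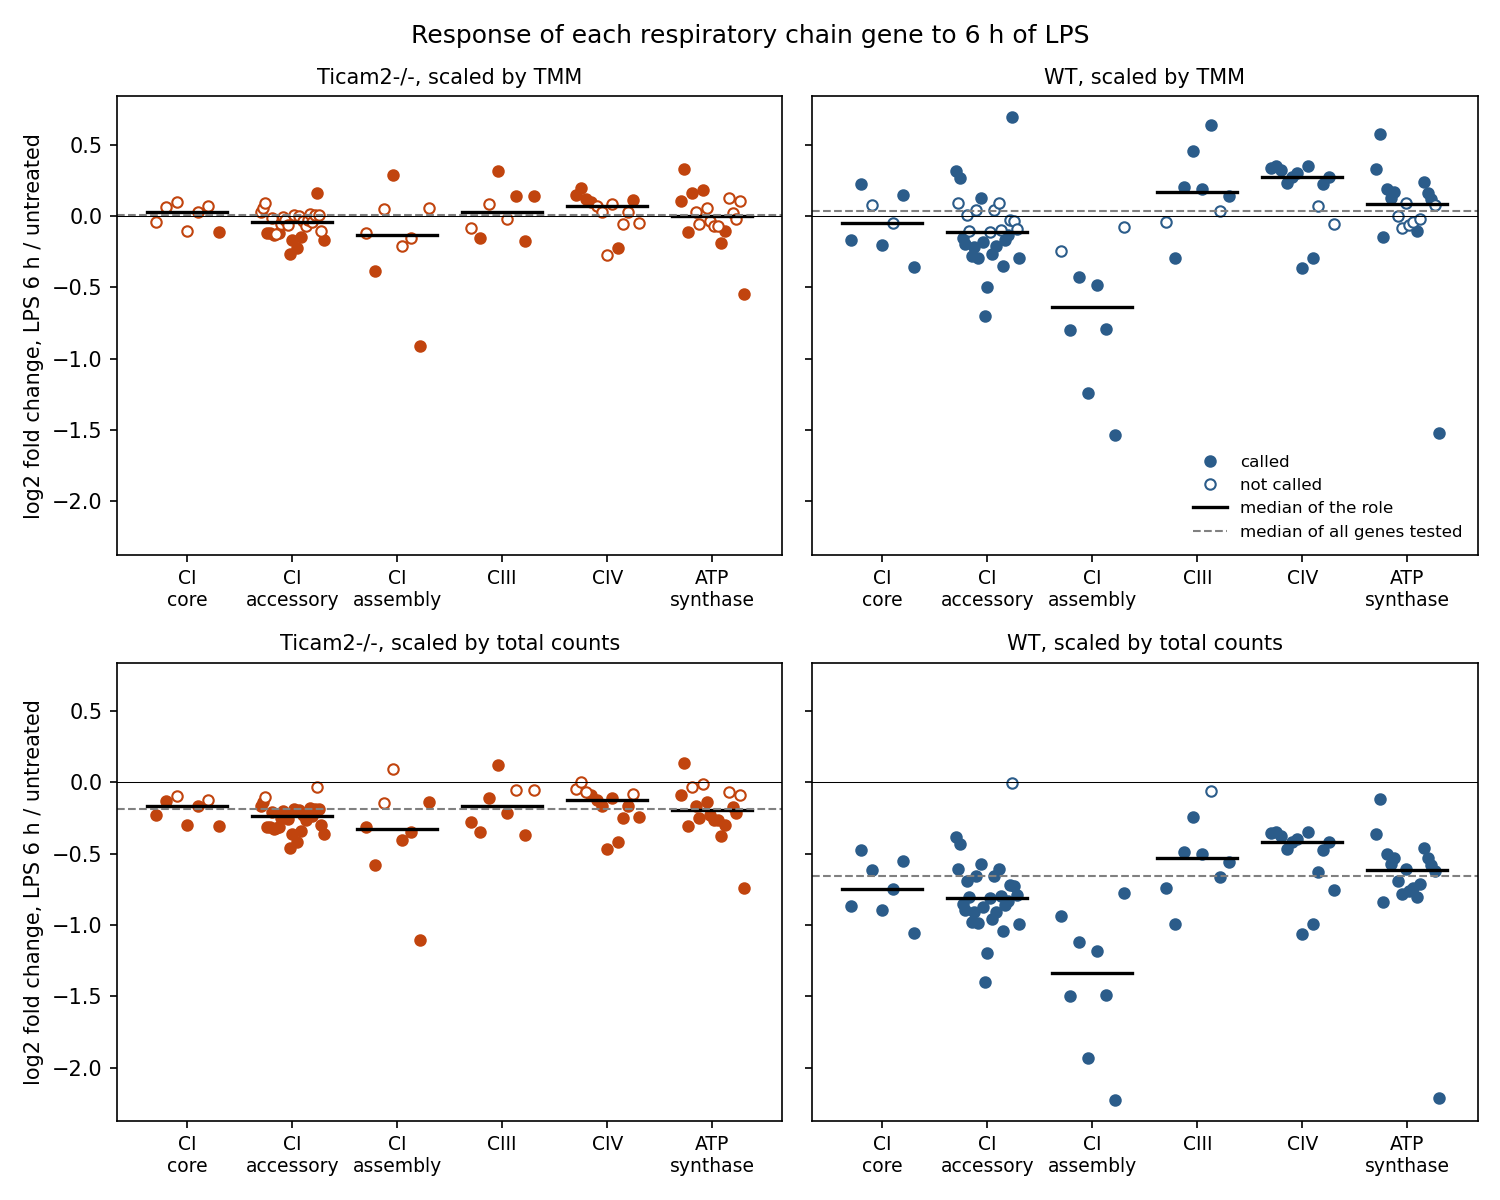
Log2 fold change of each respiratory chain gene after 6 h of LPS against untreated cells (points; filled where called), by complex, in KO (left) and WT cells (right) and by TMM (top) and total counts (bottom), with the median of each role (black line) and of all genes tested (dashed). In WT cells by TMM, the medians run between -0.64 for complex I assembly factors and 0.27 for complex IV, and by total counts every role lies below 0.

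The assembly factors of complex I stood lowest. In KO cells 2 of the 8 fell and 1 rose by TMM, with a median of -0.14, and 6 fell by total counts, with a median of -0.33. In WT cells 6 fell and none rose by TMM, with a median of -0.64, and all 8 fell by total counts, with a median of -1.34. Ndufaf7 encodes a methyltransferase needed for the assembly of complex I. It had 3.62, 6.45 and 5.93 CPM in LPS-treated and 10.1, 10.3 and 9.95 in untreated KO cells, and 2.93, 2.34 and 3.16 in LPS-treated and 8.85, 7.74 and 7.90 in untreated WT cells. It fell in both genotypes without overlap, with log2 fold changes of -0.91 ± 0.14 in KO and -1.53 ± 0.19 in WT (adjusted p = 2.47e-07 and 6.15e-10), and by total counts the changes were -1.11 and -2.23. Ndufaf4, which acts with Ndufaf3 on an early intermediate of complex I, moved in opposite directions. It had 23.5, 23.8 and 22.7 CPM in LPS-treated and 17.0, 20.2 and 20.2 in untreated KO cells, a rise of 0.28 ± 0.077 by TMM (adjusted p = 0.00163) that was not called by total counts (0.09). In WT cells it had 8.18, 11.1 and 10.0 CPM with LPS and 24.6, 23.8 and 20.9 CPM without, a change of -1.24 ± 0.098 (adjusted p = 2.89e-16) and of -1.93 by total counts. Ndufaf6, an assembly factor related to squalene and phytoene synthases, gave -0.15 ± 0.12 in KO, which was not called, and -0.79 ± 0.15 in WT, which was. Ndufaf2, which acts late in the assembly of complex I, fell in both (-0.39 ± 0.075 in KO and -0.80 ± 0.09 in WT).

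Among the subunits of complex I, the accessory subunits went both ways. In KO cells 1 of 29 rose and 9 fell by TMM (median -0.043), and 27 fell by total counts (median -0.24). In WT cells 4 rose and 14 fell by TMM (median -0.12), and 28 fell by total counts (median -0.81). Ndufs4, a subunit of the NADH-oxidising arm whose loss causes a Leigh-like disease in mice, had 48.8, 57.0 and 51.3 CPM in LPS-treated and 47.2, 48.1 and 45.0 in untreated KO cells, and 74.6, 74.8 and 84.9 in LPS-treated and 49.1, 49.3 and 46.8 in untreated WT cells. By TMM it rose by 0.16 ± 0.061 in KO and 0.69 ± 0.061 in WT (adjusted p = 0.0216 and 1.38e-14), the largest rise among the members in WT. The call in KO was lost without untreated library 3 (0.13) or LPS library 2 (0.097). Scaled by total counts it had 52.9, 51.7 and 58.9 CPM with LPS and 55.5, 55.7 and 52.9 without in WT cells, a difference of -0.0058 that was not called (adjusted p = 0.935). Ndufb10, an accessory subunit of the membrane arm, ran the other way, at 69.6, 76.0 and 72.1 CPM with LPS and 87.7, 88.4 and 85.5 without in KO cells, and 52.8, 51.2 and 57.6 with LPS and 90.1, 86.0 and 87.0 without in WT cells. It fell in both (-0.26 ± 0.054 in KO and -0.70 ± 0.06 in WT), with no overlap between treated and untreated libraries in either. Ndufab1, the mitochondrial acyl carrier protein, gave -0.061 ± 0.05 in KO, which was not called, and fell in WT (-0.18 ± 0.052, adjusted p = 0.00176), a call lost without WT LPS library 2 (-0.13). A processed copy of this gene has counts of its own, so its values are uncertain. Of the 7 core subunits, 0 rose and 1 fell in KO and 2 rose and 3 fell in WT by TMM, while 5 fell in KO and all 7 in WT by total counts. Ndufv2, a core subunit with an iron-sulfur cluster at the NADH-oxidising tip, fell in both (-0.11 ± 0.043 in KO and -0.36 ± 0.045 in WT), although 3 of the 6 fits without 1 library lost the call in KO (-0.095 to -0.11).

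Complex III had 3 rising and 2 falling of 8 in KO and 5 rising and 1 falling in WT by TMM, with medians of 0.030 and 0.16, and 5 and 7 falling by total counts. Uqcrfs1, the Rieske iron-sulfur protein, had 85.9, 93.0 and 93.6 CPM with LPS and 81.1, 82.7 and 84.0 without in KO cells, and 115, 122 and 127 with LPS and 77.4, 77.6 and 79.5 without in WT cells. The treated libraries lay above the untreated ones in both genotypes, by 0.14 ± 0.053 in KO and 0.64 ± 0.054 in WT (adjusted p = 0.0271 and 3.32e-15), and by total counts the changes of -0.058 and -0.061 were not called. In KO the call was lost without untreated library 1 or 2 or LPS library 2 or 3 (0.11 to 0.13). Uqcrc1, a core protein of complex III, had 116, 128 and 124 CPM with LPS and 96.6, 98.8 and 101 without in KO cells, and 124, 137 and 150.3 with LPS and 101, 97.2 and 102 without in WT cells. It rose by 0.32 ± 0.048 and 0.45 ± 0.049 by TMM, whereas by total counts it was 0.12 in KO and -0.24 in WT, both called. In complex IV, 5 of 13 rose and 1 fell in KO and 9 rose and 2 fell in WT by TMM (medians 0.071 and 0.27), and 9 and 13 fell by total counts. Cox5a, which binds at the matrix side of the complex, rose by 0.20 ± 0.039 in KO and 0.35 ± 0.039 in WT by TMM, and was 0.00078 and -0.35 by total counts. Cox7a2l fell on both scales in both genotypes (-0.23 ± 0.045 in KO and -0.30 ± 0.048 in WT by TMM). Cox7a1, the isoform of heart and skeletal muscle, stood at 5.35, 7.57 and 6.00 CPM with LPS and 6.61, 8.63 and 7.60 without in KO cells, and 5.50, 4.57 and 6.76 with LPS and 7.64, 6.44 and 7.73 without in WT cells. Treated and untreated libraries overlapped by TMM in both, at -0.27 ± 0.13 in KO, which was not called, and -0.37 ± 0.15 in WT (adjusted p = 0.0296). Of the 6 fits without 1 library, 2 gained the call in KO (-0.36 and -0.42) and 4 lost it in WT (-0.20 to -0.36).

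For ATP synthase, 4 of 18 rose and 4 fell in KO and 8 rose and 3 fell in WT by TMM, and 13 and 18 fell by total counts. Atp5b, the catalytic beta subunit, had 327, 344 and 354 CPM with LPS and 267, 276 and 274 without in KO cells, and 397, 438 and 407 with LPS and 279, 276 and 279 without in WT cells. It rose without overlap in both genotypes, by 0.33 ± 0.042 in KO and 0.58 ± 0.042 in WT (adjusted p = 2.26e-09 and 1.23e-17), and by total counts it was 0.13 in KO and -0.12 in WT. Atp5b and Uqcrc1 were the 2 members called higher on both scales in KO cells after 6 h of LPS, and no member was in WT cells, where 15.6% of all genes in KO and 16.2% in WT were. Atp5a1, whose product forms the catalytic head with that of Atp5b, rose by 0.11 ± 0.038 in KO and 0.33 ± 0.038 in WT by TMM, and was -0.088 and -0.36 by total counts. Without untreated library 1 or 3 or LPS library 2 its rise in KO was not called (0.091 to 0.093). The genes Atp5g1, Atp5g2 and Atp5g3 encode the same mature subunit of the rotating c ring with different import sequences. Of these, Atp5g1 rose by 0.18 ± 0.043 in KO by TMM, with no call in WT. Atp5g2 and Atp5g3 were called in neither genotype by TMM and lower in both by total counts.

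On both scales 19 members were called lower in KO and 29 in WT after 6 h of LPS, where 26.6% and 36% of all genes were. Besides Ndufaf7, Ndufaf2, Ndufb10 and Cox7a2l, the 29 of WT cells held Ndufaf3, Ndufaf4, Ndufaf5, Ndufaf6, the core subunits Ndufs1, Ndufs7 and Ndufv2, and Atp5s. Atp5s, which encodes coupling factor B and had the fewest counts of any member, fell in both (-0.55 ± 0.19 in KO and -1.52 ± 0.26 in WT), with treated libraries below untreated ones in each genotype, and 3 of the 6 fits without 1 library lost the call in KO (-0.45 to -0.48). By TMM, 12 members were called higher and 16 lower in both genotypes, and 1, Ndufaf4, was called in opposite directions. Of all genes, 20.5% were called higher in both, 21.4% lower in both and 4.45% in opposite directions, against 14.5%, 19.3% and 1.21% of the members. Over the 6 untreated and 6 h groups, Ndufaf7 had the widest range of group means, 2.03 on the log2 scale of TMM levels, followed, among members whose mean log2 CPM was 2 or more, by Ndufaf4 with 1.25 and Ndufaf6 with 1.01. The narrowest were Atp5j with 0.075, Ndufa2 with 0.089 and Ndufa4 with 0.096. Ndufa4, long assigned to complex I and now placed in complex IV, had 363, 436 and 449 CPM with LPS in KO and 387, 421 and 436 in WT cells.

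**Figure D3:**
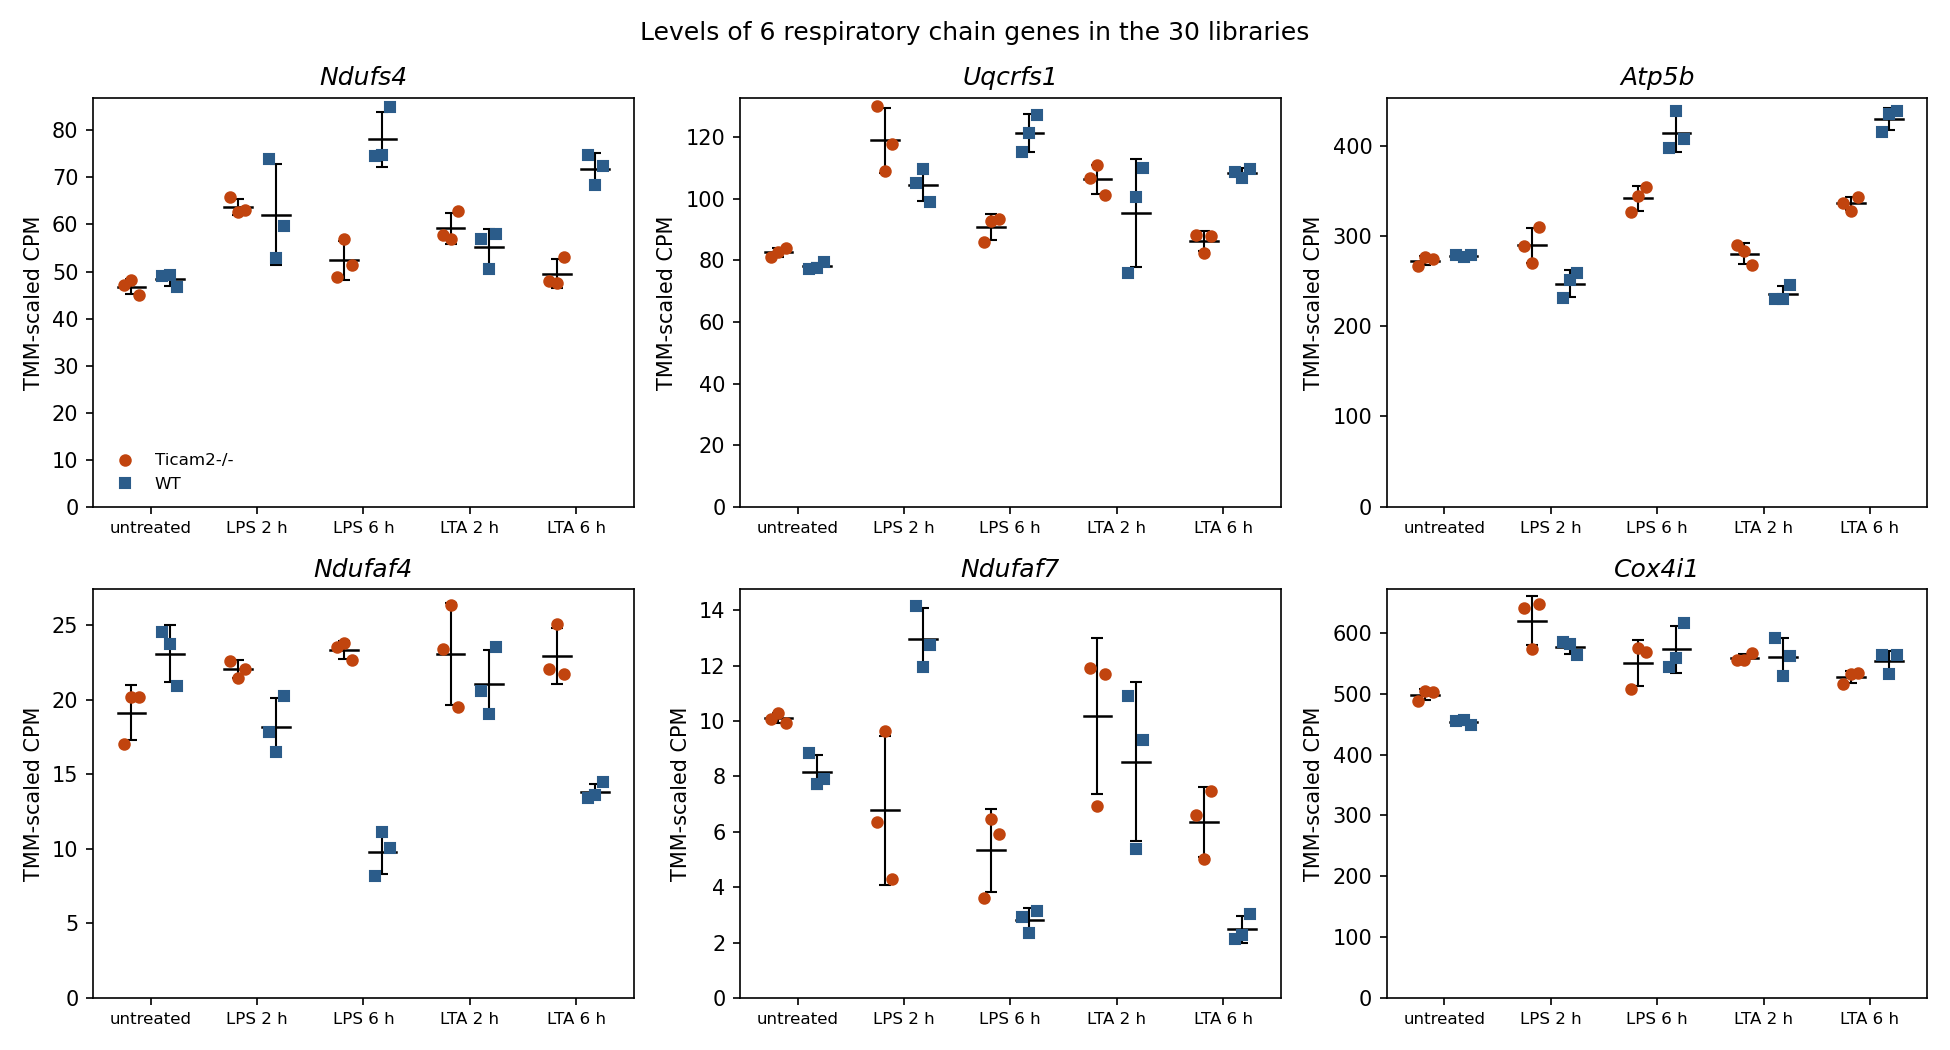
TMM-scaled CPM of Ndufs4, Uqcrfs1, Atp5b, Ndufaf4, Ndufaf7 and Cox4i1 in each of the 30 libraries (points), with the mean (line) and SD (bar, n = 3) of each group, by condition and genotype. After 6 h the WT libraries lie above the KO libraries for Ndufs4, Uqcrfs1 and Atp5b, and below them for Ndufaf4 and Ndufaf7.

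Set directly against each other after 6 h of LPS, KO and WT cells differed at nearly every member on 1 scale and at 42 on the other. By total counts 81 members were higher in KO and 0 lower, where 61.3% of all genes were called higher and 14.5% lower. By TMM 22 were higher and 20 lower, where 32.7% of all genes were called higher and 30.6% lower, so the members' share by TMM was below that of all genes in either direction. The 22 were the ones higher on both scales, and no member was lower on both, where 32.7% and 14.5% of all genes were. The 5 erythroid markers with enough counts had a median difference of -0.64 by TMM and -0.11 by total counts in the same comparison, and their part in it was not tested. The 22 genes included 5 of 8 assembly factors, 4 of 7 core subunits, 8 of 29 accessory subunits, 3 of 18 ATP synthase genes, 1 of 8 in complex III and 1 of 13 in complex IV. Of the 20 lower by TMM, 8 belonged to complex IV, 4 each to complex III and ATP synthase, 3 to the accessory and 1 to the core subunits of complex I, and none was an assembly factor.

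Ndufaf4 had the largest difference, with 23.5, 23.8 and 22.7 CPM in KO against 8.18, 11.1 and 10.0 in WT cells (1.25 ± 0.098, adjusted p = 3.39e-16, 1.77 by total counts). Ndufaf7 differed by 0.93 ± 0.21 (adjusted p = 0.000143), with 3.62, 6.45 and 5.93 CPM in KO against 2.93, 2.34 and 3.16 in WT cells, Ndufaf6 by 0.61 ± 0.15 and Ndufaf2 by 0.51 ± 0.093. All 4 were higher in every KO library than in any WT library. Ndufb10 was higher by 0.43 ± 0.061 and Cox7a2l by 0.30 ± 0.048, where Cox7a2l had already differed by 0.23 in untreated cells. Ndufs4 was 48.8, 57.0 and 51.3 CPM in KO and 74.6, 74.8 and 84.9 CPM in WT cells, lower without overlap by TMM (-0.58 ± 0.061, adjusted p = 5.54e-12). By total counts it was 50.4, 56.4 and 50.6 in KO and 52.9, 51.7 and 58.9 CPM in WT cells, a difference of -0.056 that was not called (adjusted p = 0.406). Uqcrfs1 was -0.42 ± 0.053 by TMM and 0.10 by total counts, Atp5b -0.28 ± 0.042 and 0.24, and Cox6c, a complex IV subunit, -0.27 ± 0.048 and 0.25. Of these 3, Atp5b and Cox6c were called on both scales with opposite signs, as were 18 members in all (all genes 6.6%). Cox6c and Ndufb4 have processed copies with counts of their own, so their values are uncertain. RLE factors called 15 higher and 33 lower, and the members' own summed counts 27 higher and 15 lower. The split by TMM also shifted with single libraries, to 28 higher and 12 lower without KO library 1 and to 17 higher and 28 lower without WT library 2.

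**Figure D4:**
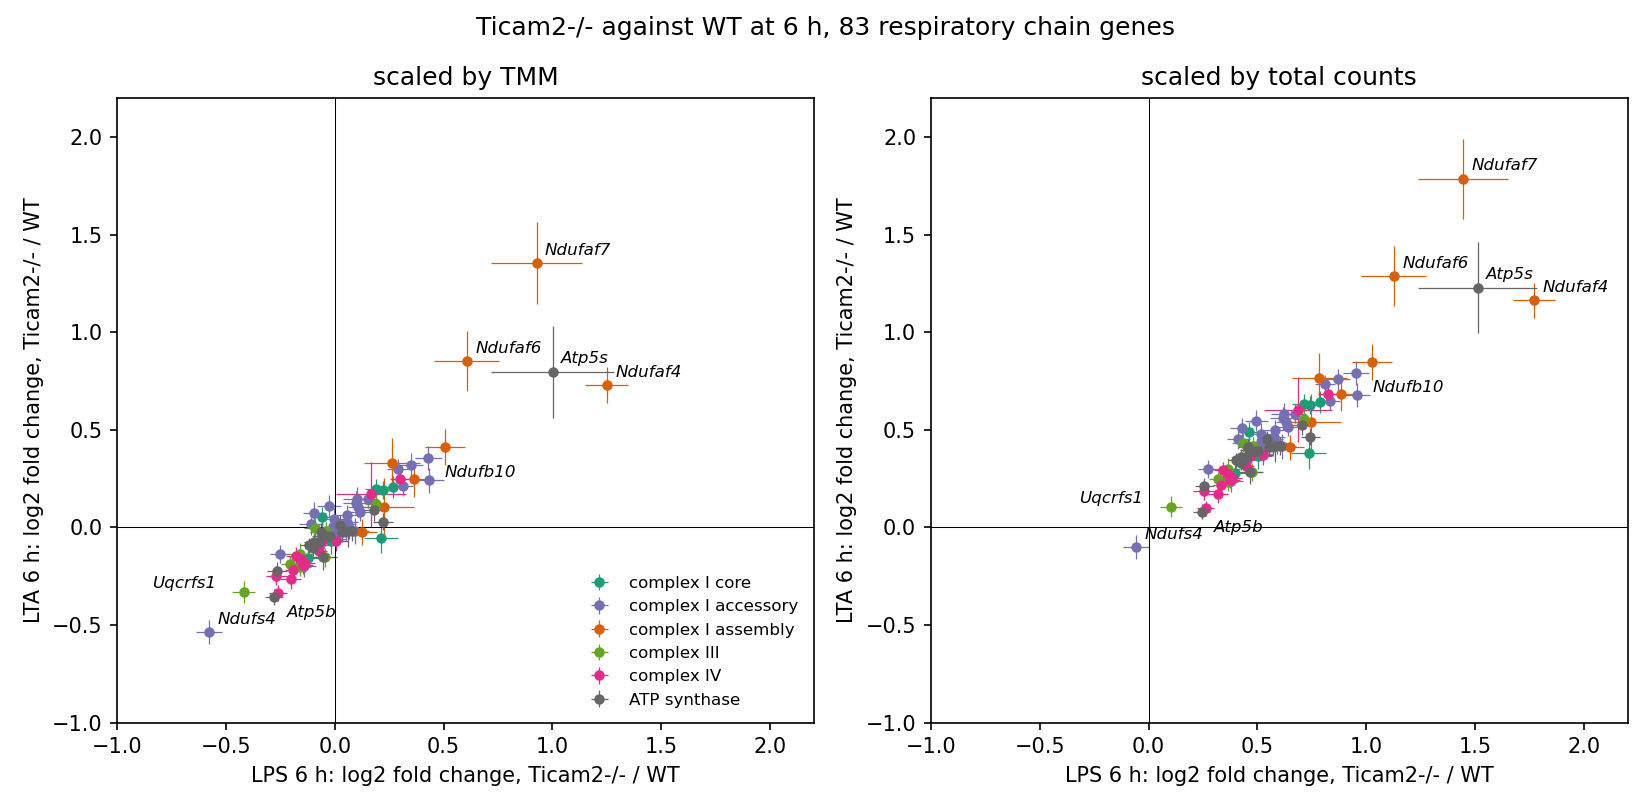
Log2 fold change of KO over WT after 6 h of LPS (horizontal) and LTA (vertical) for each respiratory chain gene, with SE bars, by TMM (left) and by total counts (right). By TMM Ndufaf4 lies furthest to the right, Ndufaf7 highest and Ndufs4 lowest, and by total counts 81 and 80 of the 83 members are called higher in KO.

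The test of the response itself, LPS over untreated in KO against LPS over untreated in WT, called 13 members higher and 19 lower by TMM (all genes 26.9% and 23.5%) and 81 higher and 0 lower by total counts (all genes 55.9% and 10.9%). RLE factors gave 10 higher and 31 lower, and the members' summed counts 21 higher and 10 lower. Without KO LPS library 1 the split by TMM was 16 higher and 11 lower. A higher value here means a smaller fall or a larger rise in KO. Ndufaf4 led with 1.52 ± 0.13 (adjusted p = 3.68e-15), and Ndufaf6 (0.64 ± 0.19), Ndufaf3 (0.47 ± 0.11), Ndufb10 (0.44 ± 0.081) and Ndufaf2 were among the 13. All 13 were called higher on both scales, as were 26.9% of all genes. Ndufaf7 gave 0.62 ± 0.25 (adjusted p = 0.0334), a call lost (0.46 to 0.56) without KO LPS library 2 or 3, untreated WT library 1 or WT LPS library 2. The lowest were Ndufs4 (-0.53 ± 0.087), Uqcrfs1 (-0.50 ± 0.076), Ndufa1 (-0.29 ± 0.064) and Cox6c (-0.27 ± 0.068) by TMM. By total counts these were -0.025, 0.0029, 0.21 and 0.23, of which the first pair was not called. In complex IV 9 of 13 genes had a smaller rise or a larger fall in KO by TMM, and none a larger rise.

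The libraries treated with LTA for 6 h were set against the same untreated libraries. By TMM 8 members rose and 24 fell in KO (all genes 25.7% and 26.5%) and 24 rose and 32 fell in WT (all genes 35.4% and 35.9%). By total counts 1 rose and 71 fell in KO (all genes 16.4% and 41.1%) and 0 rose and 81 fell in WT (all genes 15.7% and 62.2%). Between the genotypes, 19 were higher and 23 lower in KO by TMM (all genes 30.4% and 28%) and 80 higher and 0 lower by total counts (all genes 58.9% and 12.2%). With RLE factors the split was 8 and 25 in KO, 32 and 24 in WT, and 13 higher and 34 lower between genotypes. With the members' summed counts it was 11 and 20 in KO, 20 and 41 in WT, and 28 and 14 between genotypes. Without WT LTA library 2 the split between genotypes by TMM was 12 higher and 29 lower. The genotype comparisons with LPS and with LTA share no library, although the animals are the same. Of the 22 members higher in KO with LPS by TMM and the 19 with LTA, 17 were shared, 77.3% and 89.5% of each list. Of the 20 and 23 lower, 20 were shared, 100.0% and 87.0% of each. For all genes these shares were 76.3% and 82.0% of the higher and 74.7% and 81.8% of the lower calls.

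Ndufaf7 had 6.59, 5.00 and 7.47 CPM in KO and 2.11, 2.27 and 3.04 CPM in WT cells with LTA, the widest difference of that comparison (1.35 ± 0.21, adjusted p = 1.88e-07). Ndufaf6 differed by 0.85 ± 0.15 and Ndufaf2 by 0.41 ± 0.092. Ndufaf4 had 22.1, 25.1 and 21.7 CPM in KO and 13.4, 13.6 and 14.4 CPM in WT cells (0.73 ± 0.091, adjusted p = 1.1e-09). Ndufs4 had 48.1, 47.5 and 53.0 CPM in KO and 74.9, 68.3 and 72.3 CPM in WT cells (-0.54 ± 0.062, adjusted p = 1.32e-10, -0.10 by total counts). For all 5 genes no KO library reached into the range of WT libraries. Atp5b (-0.35 ± 0.042), Cox7c (-0.34 ± 0.042), a small subunit of complex IV, and Uqcrfs1 (-0.33 ± 0.054) were lower by TMM and 0.081, 0.098 and 0.11 by total counts. The responses to LTA differed between genotypes at 11 members called higher and 19 lower by TMM (all genes 24.7% and 20%) and at 79 higher and 0 lower by total counts (all genes 52.7% and 8.34%). RLE factors gave 6 higher and 32 lower there, and the members' summed counts 22 and 7. By TMM it was 6 and 21 without WT LTA library 1, 5 and 27 without library 2 and 6 and 24 without library 3.

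LPS and LTA were set against each other within each genotype at 6 h. In KO cells 0 members were called by edgeR's quasi-likelihood test on either scale, where 1.35% of all genes were called higher and 1.3% lower by TMM. At an unadjusted p below 0.05 there were 7 higher and 0 lower, DESeq2 called 1 member (Ndufa8), and the smallest adjusted p by edgeR was 0.0770 for Ndufa8. Without KO LPS library 1 the count was 7, all higher with LPS. In WT cells 5 were higher and 3 lower with LPS by TMM (all genes 17.9% and 13.9%), and 0 higher and 23 lower by total counts (all genes 14.1% and 22.5%). Ndufaf4 had 8.18, 11.1 and 10.0 CPM with LPS and 13.4, 13.6 and 14.4 CPM with LTA in WT cells (-0.50 ± 0.12, adjusted p = 0.000418), and it was lower on both scales together with Atp5g1 (-0.16 ± 0.046) and Ndufs1 (-0.22 ± 0.082), the largest core subunit of complex I. The 5 higher were Ndufs3, Ndufs5, Uqcrfs1, Atp5f1 and Ndufa1, by TMM and not by total counts. Atp5g1 was not called without WT LPS library 1 (-0.12), nor Ndufs1 (-0.19 to -0.21) and Uqcrfs1 (0.11 to 0.16) in 4 of the 6 fits without 1 library. Leaving out WT LPS library 2 or 3 or any WT LTA library brought the count of 8 down to 3 to 5. At 2 h, LPS against LTA called 0 members in either genotype by TMM with edgeR and by DESeq2, where 1.14% of all genes were called higher and 0.251% lower in KO and 1.1% and 0.0925% in WT. At an unadjusted p below 0.05 there were 8 higher and 1 lower in KO and 7 and 1 in WT, and total counts called 1 lower in KO, Atp5e, the epsilon subunit of ATP synthase.

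At 2 h few members differed between the genotypes, in shallower libraries with a median member at 279 counts per library against 1351 in the untreated and 6 h libraries. KO against WT with LPS called 3 members higher and 2 lower by TMM (all genes 9.05% and 7.24%) and 1 higher and 11 lower by total counts (all genes 5.96% and 9.75%). With LTA it called 2 higher and 0 lower by TMM (all genes 7.79% and 5.19%) and 2 of each by total counts (all genes 5.51% and 6.85%). With the members' summed counts it was 2 higher and 3 lower with LPS and 2 higher and 1 lower with LTA. Uqcrc1 had 142, 143 and 145 CPM in KO and 116, 121 and 115 CPM in WT cells with LPS (0.30 ± 0.074, adjusted p = 0.00272), and Atp5b and Atp5a1 of ATP synthase were the other members called higher by TMM, and neither was called with LPS by total counts. Atp5b differed by 0.21 ± 0.057 with LPS and 0.25 ± 0.058 with LTA, and Atp5a1 by 0.16 ± 0.051 and 0.25 ± 0.052. With LPS, leaving out WT library 1 ended both calls, as did leaving out KO library 3 for Atp5b and KO library 2 for Atp5a1 (0.17 for Atp5b, 0.11 to 0.14 for Atp5a1). Cox7b, a small subunit of complex IV, was lower in KO with LPS (-0.17 ± 0.051, and not called at -0.15 without KO library 1 or 2), as was Ndufaf7 (-0.83 ± 0.29), the gene that was higher in KO at 6 h. The call of Ndufaf7 was lost in 5 of the 6 fits without 1 library (-0.59 to -0.88). Without WT LPS library 1 the count with LPS was 2 and without KO LPS library 3 it was 3, in place of 5.

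Against the untreated libraries, 46 members were higher and 11 lower at 2 h of LPS in KO (all genes 26.9% and 30.2%) and 50 higher and 15 lower in WT (all genes 19.6% and 25.1%) by TMM, or 42 and 9 in WT without LPS library 1. By total counts it was 33 and 16 in KO (all genes 22.6% and 35.7%) and 50 and 16 in WT (all genes 19% and 25.8%). With LTA, 48 were higher and 16 lower in KO (all genes 26.4% and 29.5%) and 43 higher and 14 lower in WT (all genes 19.1% and 23.6%) by TMM, and 39 and 19 in KO (all genes 23.3% and 33.5%) and 44 and 14 in WT (all genes 19.2% and 23.6%) by total counts. Scaled by the members' summed counts, the split was 28 and 22 in KO and 31 and 24 in WT with LPS, and 27 and 25 in KO and 28 and 20 in WT with LTA. Ndufb4, an accessory subunit of the membrane arm, had 186, 119 and 142 CPM with LPS and 65.3, 69.7 and 65.8 without in KO cells, and 149, 159.8 and 153 with LPS and 71.1, 66.9 and 67.1 without in WT cells (1.10 ± 0.082 and 1.17 ± 0.081). Ndufa4 was lower without overlap, at 206, 159 and 197 CPM with LPS and 435, 432 and 424 without in KO cells, and 202, 173 and 189.7 with LPS and 437, 423 and 436 without in WT cells (-1.23 ± 0.07 and -1.20 ± 0.069). Ndufa4 had the third narrowest range among the untreated and 6 h groups. The symbol Atp5o, the stalk subunit that confers sensitivity to oligomycin, belongs to 2 gene IDs, and the one with fewer counts was lower in both genotypes (-1.98 ± 0.19 in KO and -1.86 ± 0.19 in WT). How counts are split between these IDs is uncertain. The erythroid markers, the collagen genes and the liver markers Alb and Ttr given above differ between the same 2 sets of libraries. Their part in these differences was not tested.

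**Figure D5:**
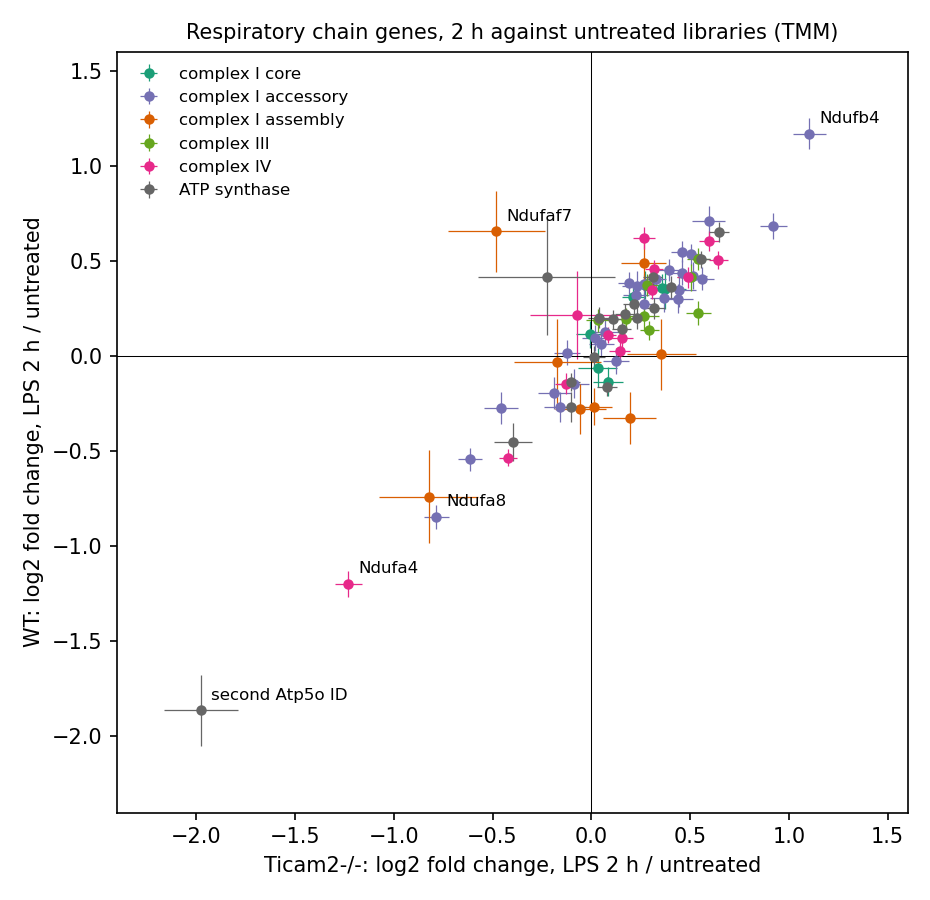
Log2 fold change of each respiratory chain gene at 2 h of LPS over untreated cells by TMM in KO (horizontal) and WT cells (vertical), with SE bars. Most members lie close to the diagonal, between the second Atp5o ID at -1.98 and -1.86 and Ndufb4 at 1.10 and 1.17, and the libraries of 2 h form a set of their own.

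Other genes of the pathway were taken from lists of names. The shares of all genes called in the comparisons below are those given above beside the members. The 13 mitochondrially encoded subunits had 5 lower in KO after 6 h of LPS by TMM and 10 by total counts, and 5 higher and 4 lower in WT by TMM and 11 lower by total counts. Their summed counts were 1.43 times those of the members in KO and 1.48 times in WT with LPS, and 1.55 and 1.58 times without treatment. With LPS the KO and WT ratios did not overlap (exact permutation p = 0.1). Between genotypes with LPS, mt-Co1, the catalytic subunit of complex IV, was -0.48 ± 0.056 by TMM and mt-Nd5, a proton-pumping subunit of complex I, -0.59 ± 0.11, and by total counts neither was called (0.047 and -0.066). The 4 genes of complex II, none of them a member, had 3 lower in each genotype after LPS by TMM, and all 4 were higher in KO than in WT by total counts. By TMM they lay between -0.091 for Sdha and 0.092 for Sdhb, the flavoprotein and iron-sulfur subunits, with adjusted p of 0.0868 and 0.115. Of the 41 further assembly factors, 6 rose and 16 fell in KO and 10 rose and 22 fell in WT by TMM, and 21 were higher and 10 lower in KO than in WT. The 78 mitochondrial ribosomal protein genes had 40 higher and 9 lower in KO than in WT by TMM and 71 and 2 by total counts, while 89 cytosolic ones had 7 and 27 by TMM and 86 and 0 by total counts.

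Cytochrome c, encoded by Cycs, carries electrons between complexes III and IV and is not a member by its symbol. In KO cells it had 165, 183 and 184 CPM after 6 h of LPS and 136, 139.8 and 136 without treatment. In WT cells it had 373, 402 and 419 CPM after 6 h of LPS and 152, 156 and 161 without. It rose on both scales, by 0.37 ± 0.046 in KO and 1.35 ± 0.045 in WT by TMM and by 0.18 and 0.65 by total counts, a larger rise in WT than that of any member. Between genotypes after 6 h of LPS, it was lower in KO on both scales (-1.17 ± 0.045 by TMM and -0.64 by total counts). That held for no member. At 2 h of LTA it was called higher in KO than in WT (0.29 ± 0.079 by TMM), and at 2 h of LPS it was not called. Against untreated WT cells it was called lower at 2 h, by TMM -0.53 ± 0.063 with LPS and -0.62 ± 0.066 with LTA. The 2 h libraries form a set of their own, as given above. Cyc1, the cytochrome of complex III, gave 0.026 ± 0.059 in KO after 6 h of LPS by TMM, which was not called. In WT it rose by 0.28 ± 0.061, and by total counts the changes were -0.17 in KO and -0.42 in WT. Among 18 regulators of mitochondrial biogenesis, 6 were higher and 6 lower in KO than in WT after 6 h of LPS by TMM. Both were near the shares of all genes given above for that comparison. Polrmt, the mitochondrial RNA polymerase, was 0.76 ± 0.13 and Tfb2m, its initiation factor, 0.72 ± 0.12 higher, while Slirp, which stabilises mitochondrial mRNAs, was -0.73 ± 0.049. By total counts these were 1.28, 1.25 and -0.20, all called.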

How the data were processed

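RNA of bone marrow-derived macrophages was sequenced in 30 libraries, 3 in each of 10 groups. The authors deposited 1 table of expected counts per Ensembl gene ID: many values are not whole, so they are treated as estimated counts and were rounded to whole numbers here. The submitters' processing notes name STAR 2.7.11, fastp 0.24.0, featureCounts, Subread 2.1.1, SAMtools 1.22.1 and the build GRCm38 (mm10). The sources used here state neither their order and settings nor the strand and the RNA selection. Not whole were 34.4% of member values above 0, against 25.2% of all, so a gene that shares reads with a near-identical copy is uncertain. Among the genes named, processed copies with counts of their own and a symbol of the same pattern exist for Cox6c, Ndufab1 and Ndufb4. Copies under other names were not searched, so other genes named may share reads as well.

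Symbols and gene types came from GENCODE M21 by ID. Genes passing edgeR's filter (minimum count 10, minimum total 15) entered edgeR 4.0.16 (limma 3.58.1, R 4.3.3): 15131 genes, with all 83 members. A quasi-likelihood model with robust dispersions, TMM factors and 1 coefficient per group was fitted to the 30 libraries (20 residual degrees of freedom). P-values were adjusted over all genes by Benjamini and Hochberg at 0.05, and genotype differences in a response were tested as interactions. The script was tested on simulated data, which did not hold the shift of TMM factors seen in WT cells at 6 h. Single shares used an exact permutation test. Alternatives were total counts, RLE factors, the members' summed counts, DESeq2 1.42.0, no filter, the compared groups alone, a replicate block and leaving out each library. A fit on the 18 untreated and 6 h libraries was chosen after seeing the data.

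The members and lists were chosen with earlier results of these data known. Genes named were preset subunits, in each comparison the 4 highest and 4 lowest called members whose mean log2 CPM was 2 or more, and those with the 3 widest and 3 narrowest ranges. Some preset names are left out, and others were added after their values were seen. The 3 libraries of a condition came from 3 animals per the labels, and conditions of 1 genotype share animals, whereas the model treats libraries as independent. Per the labels the harvest is described at 6 h, although 12 libraries are labelled 2 h. The 2 h libraries are the shallower ones, so smaller differences could be resolved at 6 h.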

Additional observations from a re-analysis of the deposited data

Results flagged for a closer look

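The tests of a genotype difference in the 6 h response, by edgeR's quasi-likelihood test with TMM factors, called 32 members for LPS and 30 for LTA. From these, 11 respiratory chain genes with large differences are listed here. For LPS the response in KO minus that in WT was 1.52 on the log2 scale for Ndufaf4, 0.64 for Ndufaf6, 0.62 for Ndufaf7 and 0.47 for Ndufaf3, all complex I assembly factors, and 0.44 for the membrane-arm subunit Ndufb10. It was -0.53 for Ndufs4, -0.50 for Uqcrfs1, -0.29 for Ndufa1 and -0.27 for Cox6c. For LTA it was 1.05 for Ndufaf7, 1.00 for Ndufaf4, 0.89 for Ndufaf6 and 0.36 for Ndufb10, and -0.49 for Ndufs4, -0.41 for Uqcrfs1, -0.33 for the complex IV subunit Cox7a2 and -0.33 for Atp5b. The positive ones stayed positive by total counts. Of the negative ones, Ndufs4 alone stayed below 0 by total counts, where it was not called.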

How the results depend on the processing

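The choice between TMM and total counts changed more than any other alternative run. By total counts the number of called members was 10 for untreated KO against WT, 12 and 4 for KO against WT at 2 h of LPS and LTA, 81 and 80 at 6 h, 67 and 72 for LPS and LTA at 6 h in KO, 23 for LPS against LTA at 6 h in WT, 1 for that at 2 h in KO, and 81 and 79 for the genotype difference in the LPS and LTA responses. Other counts that moved were 11 for untreated KO against WT with these groups alone, 3 for KO against WT at 2 h of LPS and 4 for LPS against LTA at 6 h in WT without a filter, 1 by DESeq2 for LPS against LTA at 6 h in KO, and 1 by the members' summed counts for that at 2 h. Leaving out each library gave 2 to 6 for untreated KO against WT, 2 to 5 for KO against WT at 2 h of LPS, and 0 to 7 in KO and 3 to 8 in WT cells for LPS against LTA at 6 h.

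Single genes changed sign by total counts as follows, on the log2 scale. KO against WT at 6 h gave 0.24 for Atp5b, 0.25 for Cox6c and 0.10 for Uqcrfs1 with LPS, and 0.081 for Atp5b, 0.098 for Cox7c and 0.11 for Uqcrfs1 with LTA. LPS in KO gave -0.088 for Atp5a1, -0.014 for Atp5g1, -0.031 for Ndufs4 and -0.058 for Uqcrfs1, and LTA in KO -0.013 for Cox5a. LPS in WT gave -0.36 for Atp5a1, -0.12 for Atp5b, -0.35 for Cox5a, -0.0058 for Ndufs4, -0.24 for Uqcrc1 and -0.061 for Uqcrfs1, and LTA in WT -0.029 for Ndufs4, -0.19 for Uqcrc1 and -0.12 for Uqcrfs1. The genotype difference in response was 0.23 for Cox6c, 0.21 for Ndufa1 and 0.0029 for Uqcrfs1 with LPS, and 0.090 for Atp5b, 0.083 for Cox7a2 and 0.0042 for Uqcrfs1 with LTA. In these comparisons the TMM factors of WT libraries differ from the others, as given above.

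Labels do not say that a replicate number marks an animal, and the deviations of same-numbered libraries within a genotype correlated between -0.26 and 0.21, so the numbers were not used as pairs. A fit with the number as a replicate block gave 43 called members in place of 42 for KO against WT with LPS at 6 h and 56 in place of 57 for LPS in WT, and no count moved by more than 1.5 times. It ended the call of Ndufaf7 for KO against WT at 2 h of LPS (-0.81, adjusted p = 0.0545 by edgeR).

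The fit on the 18 untreated and 6 h libraries kept every count within 1.5 times on both scales. At 2 h, members with few counts such as Atp5s, with a mean of 4.83 counts per library, carry little information, and small differences in such members were not detectable at this depth.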

Other observations

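The share of all counts held by the 8 complex I assembly factors was 0.0153 ± 0.000527% in KO and 0.00802 ± 0.000148% in WT cells after 6 h of LPS (SD, n = 3 each), and 0.0182% in both genotypes without treatment. The share of the cytosolic ribosomal protein genes was 7.67% in KO and 5.61% in WT cells after LPS, and 8.21% and 7.84% without treatment. Esrra, a nuclear receptor that acts on respiratory genes, rose on both scales after 6 h of LPS. The rise was 0.92 ± 0.06 in KO and 1.16 ± 0.059 in WT by TMM, and 0.72 and 0.46 by total counts. Against untreated WT cells it was called lower at 2 h of LPS (-0.37 ± 0.11 by TMM and -0.39 by total counts). With LTA at 2 h it was not called in WT and was higher in KO (0.68 ± 0.091 by TMM and 0.60 by total counts). These 2 h differences cannot be told apart from those between the 2 sets of libraries.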
